A study of Mus musculus with 41 samples.

Results

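The transcripts of Esrrb-depleted mouse embryonic stem cells were compared with those of WT cells after 5 days in AloXR medium, the latest time sampled. The libraries were chosen by line and time as the labels give them, which made 10 of the 41 libraries in the series: 4 of WT, 4 of the line KO2 and 2 of the line KO3. All were E14 cells, an embryonic stem cell line from a mouse blastocyst. The cells spent 1 day in N2B27, a basal medium without serum, and then 5 days in AloXR on fibronectin. AloXR contains activin A at 3 ng/ml, the tankyrase inhibitor XAV at 2 µM, which lowers Wnt signalling, and BMS at 1.0 µM, an inverse agonist of the retinoic acid receptors. WT carries Esrrb, and KO2 and KO3 are labelled as genetically depleted for it. RNA was read as 1 tag near the 3′ end of each transcript, and a level is given in reads per 1000000 assigned reads (CPM). The series also holds the same 3 lines in 2iL medium and after 1 and 3 days in AloXR, which are used below where the difference at 5 days is set against an earlier one.

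Esrrb is an orphan nuclear receptor that binds the enhancers of many genes in naive pluripotent cells. AloXR takes cells from this naive state to formative pluripotency, in which naive transcription factors decline, Otx2 and Pou3f1 come up and the cells become able to respond to signals for the germ layers. Fibroblast growth factor (FGF) acting through the kinase ERK is a main driver of that passage, and the phosphatases and Sprouty proteins that ERK induces limit it in turn.

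At 5 days the Esrrb transcript itself was near the detection limit in every group. It was at 0.873, 0.991, 0 and 0.655 CPM in the WT libraries, 0.455, 0.237, 0 and 0.886 in those of KO2 and 1.69 and 0 in those of KO3, where a 0 allows up to 0.531 to 0.725 CPM (3 reads, counting error only). The groups overlapped, and the mean of the 6 depleted libraries differed from that of WT by -0.12 on the log2(CPM + 1) scale (exact two-sided permutation test over 210 splits, p = 0.757). In 2iL the same transcript was at 375 ± 62.9 CPM for WT, 54.6 ± 2.41 for KO2 and 135 ± 31.4 for KO3 (SD, n = 3 each), and at day 1 in AloXR at 15.1 ± 2.87, 3.46 ± 2 and 33.8 ± 7.25 (SD, n = 4 each). At day 3 it was at 1.6 ± 0.29 in WT and 1.98 ± 0.96 in KO2 (SD, n = 4 each) and 5.52 ± 0.92 in KO3 (SD, n = 2). KO3 thus held more Esrrb tags than WT at days 1 and 3, and KO2 was below WT in 2iL and at day 1 and not at day 3. The labels do not give the deleted bases, so a tag outside them can still be read, and the day 5 level does not check the labels.

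Markers of pluripotent cells were read in all 10 libraries. Sox2 ranged from 42.1 to 147 CPM, Sall4 from 97.7 to 184, Lin28a from 162 to 261 and Utf1 from 144 to 255. The formative markers Otx2, at 137 to 428 CPM, Fgf5, at 69.2 to 124, and Dnmt3b, at 1023 to 1662, were likewise present throughout. Pou5f1 was low, at 8.73 to 19.8 CPM. It has pseudogenes of almost the same sequence, so its counts are uncertain. Depth ran from 4140203 to 5644444 reads, and 17935 to 19415 genes had at least 1 read. The first principal component (42.0% of the variance) set all depleted libraries apart from WT and the second (21.9%) set KO2 apart from KO3. KO2 replicate 1 stood apart on the third (9.83%), at -44.0 against -6.04 to 20.7 for the other libraries. The share of reads from the mitochondrial genome was 2.34% ± 0.17 for WT (SD, n = 4), 2.83% ± 0.13 for KO2 (n = 4) and 3.37% ± 0.09 for KO3 (n = 2). The part of this difference in the results below was not tested.

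Of 16967 genes tested, 3491 (20.6%) were called different, 1508 higher (8.89%) and 1983 lower (11.7%) in the depleted lines. A change is the mean of the KO2 and the KO3 difference from WT on the log2(CPM + 1) scale, printed with its standard error (SE) after ±, and a call needed a limma adjusted p under 0.05, at least 1.5-fold and the same direction in both lines. The median change of all genes was 0. Among the largest rises were the ERK feedback genes Spry4 and Dusp6, the imprinted genes Peg10 and Magel2, and Sgk1 and Trh. Among the largest falls were the homeobox genes Six3 and Lmx1b, Bmp4 and the glucose transporter Slc2a3. Of the called genes 1522 were also called in the same direction in each line alone, 594 in KO2 alone, 1266 in KO3 alone and 109 in neither alone. All 6 depleted libraries lay beyond all 4 WT libraries for 2014 of the called genes, while 6.98% of all genes lay so above WT and 11.3% below. Both lines were set against the same 4 WT libraries. The labels do not say whether the libraries of a line come from separate cultures, so the p-values rest on a spread that may be technical. An effect of Esrrb loss and other differences between 1 WT line and 2 depleted lines cannot be told apart, nor can fewer cells of a type and less RNA per cell.

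Several transcripts of negative feedback on FGF signalling were higher in both depleted lines. Of 22 measured genes of the FGF and ERK response, 13 were called higher and 2 lower, and the median change was 1.3. Spry4 encodes a Sprouty inhibitor of receptor tyrosine kinase signalling, and it was at 0.873, 0.991, 0.909 and 0.655 CPM in the WT libraries, 7.97, 8.75, 11.3 and 11.9 in those of KO2 and 18.1 and 19.2 in those of KO3. Every depleted library was above every WT library, and the change was 2.98 ± 0.26 (limma adjusted p = 4.2e-12). Dusp6, the phosphatase that removes the activating phosphates of ERK in the cytoplasm, was at 48.4, 54.9, 107 and 98.2 CPM in the WT libraries, 347, 483, 472 and 443 in those of KO2 and 458 and 439 in those of KO3. Again the groups did not overlap, although WT replicates 3 and 4 were higher than replicates 1 and 2, and the change was 2.58 ± 0.2 (limma adjusted p = 1.8e-11). The nuclear phosphatase Dusp4 rose by 2.7 ± 0.46 (limma adjusted p = 3.5e-05), from 2.4 to 4.55 CPM in WT to 22.7 to 31.4 CPM in the depleted lines. For Dusp6 the change was 2.56 in KO2 and 2.61 in KO3, a difference of 0.05 ± 0.27 (limma adjusted p = 0.93).

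The ETS factors Etv4 and Etv5, which ERK induces, were higher as well. Etv5 was at 25.5, 26, 27.5 and 20.7 CPM in the WT libraries, 124, 107, 105 and 97.8 in those of KO2 and 104 and 104 in those of KO3, a change of 2.05 ± 0.1 (limma adjusted p = 5.8e-20). The spread within each group was small, and no depleted library came near the WT range. Etv4 was at 1.53, 3.17, 6.37 and 4.8 CPM in the WT libraries, 19.8, 28.6, 22.5 and 20.4 in those of KO2 and 16.4 and 19.2 in those of KO3, a change of 2.19 ± 0.2 (limma adjusted p = 1.9e-11). Fgf4, the ligand through which pluripotent cells stimulate ERK in each other, was at 4.58, 6.74, 8.41 and 5.46 CPM in the WT libraries, 29.6, 33.8, 35.6 and 39.5 in those of KO2 and 26.8 and 29.7 in those of KO3. Its lowest depleted library exceeded its highest WT library, and the change was 2.17 ± 0.16 (limma adjusted p = 1.8e-14).

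The FGF receptor gene Fgfr2 moved the other way. Fgfr2 was at 69.6, 55.3, 34.1 and 32.5 CPM in the WT libraries, 17.8, 18.4, 6.46 and 9.57 in those of KO2 and 9.18 and 7.02 in those of KO3. All depleted libraries were below all WT libraries, and the change was -2.1 ± 0.25 (limma adjusted p = 1.1e-08). Egr1, a transcription factor induced within minutes of ERK activation, was at 4.14, 1.78, 30.5 and 30.6 CPM in the WT libraries, 9.56, 30.5, 52.3 and 54.2 in those of KO2 and 57.7 and 55.5 in those of KO3. Here WT replicates 3 and 4 reached the level of KO2 replicate 2 and the groups overlapped. The change of 1.96 ± 0.49 was called (limma adjusted p = 0.0024) and was not called when the day 5 libraries were fitted alone. The labels name no batch that would divide the WT libraries. In the wider AP-1 and immediate early list, 7 of 19 measured genes were called higher and 0 lower, with a median of 0.44, and Fosl1 (1.88 ± 0.3) and Myc (1.93 ± 0.4) rose most beside Egr1. The list moved mainly in KO3, with a median of 0.74 and 10 genes called higher and 0 lower. In KO2 the median was 0.06, with 4 called higher and 1 lower, and 7 genes were higher in KO3 than in KO2.

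**Figure D1:**
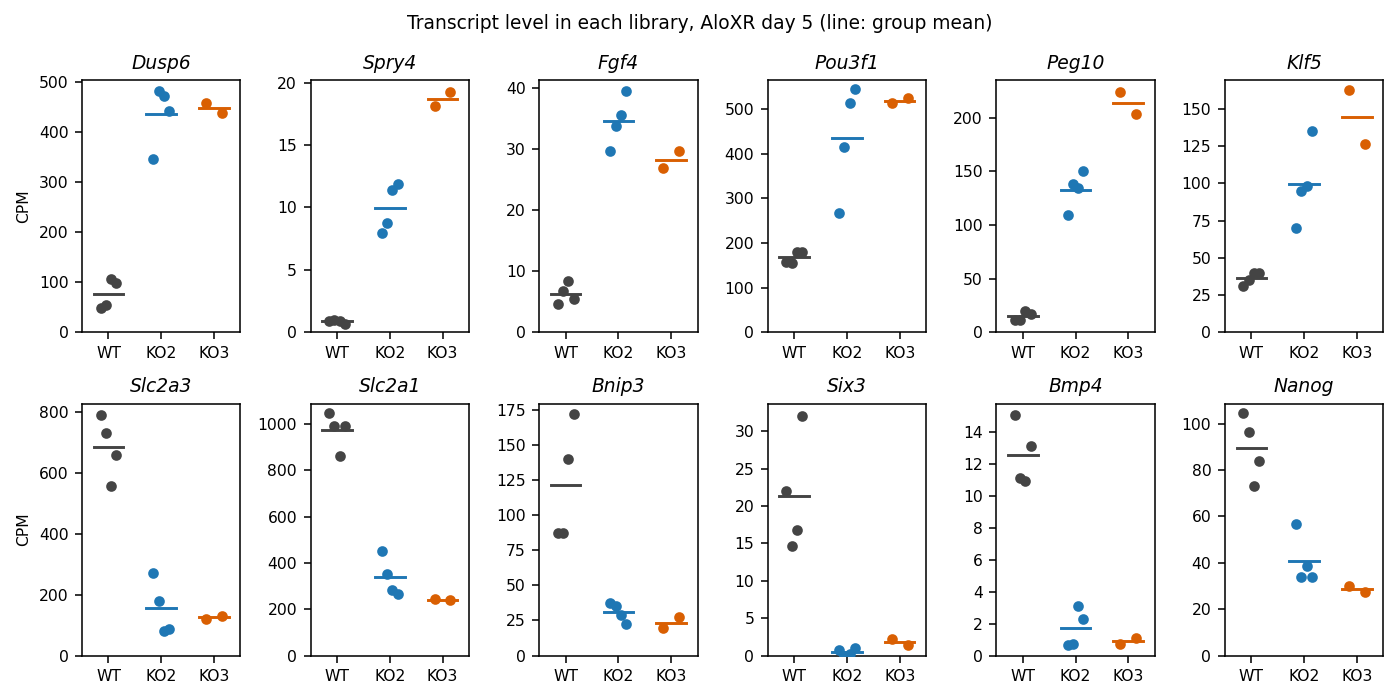
Level in CPM (vertical axes, each from 0) of 12 transcripts in each of the 10 libraries at AloXR day 5, by line, with a horizontal line at the group mean. Points of Dusp6, Spry4, Fgf4, Pou3f1, Peg10 and Klf5 are higher in both depleted lines, and points of Slc2a3, Slc2a1, Bnip3, Six3, Bmp4 and Nanog are lower, with no depleted library inside the WT range.

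Many genes of glucose uptake, glycolysis and the hypoxia response were lower in both depleted lines. This list holds enzymes of glycolysis and targets of the hypoxia-inducible factors (HIF), transcription factors that also set glycolytic enzymes in normal oxygen. Of 28 measured members 17 were called lower and 0 higher, the median change was -0.88, and the members ranged from -2.37 to 0.42. Their summed level was 5421 to 6293 CPM in WT, 2671 to 3545 in KO2 and 2524 to 2602 in KO3. The count of members called lower was 15 to 18 under every alternative setting run for it except a fold minimum of 2, under which it was 11.

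The promoters of 3 of these genes are shown because their transcripts fell and the windows hold the core of the HIF-binding element. Each window runs from 250 bases before to 50 bases after the start site (RefSeq, GRCm38.p6), read 5′ to 3′ on the strand of the gene. Capitals mark ACGTG on either strand, so that CACGTG is a pair of overlapping matches.
Bnip3, chr7:138909457-138909756, minus strand: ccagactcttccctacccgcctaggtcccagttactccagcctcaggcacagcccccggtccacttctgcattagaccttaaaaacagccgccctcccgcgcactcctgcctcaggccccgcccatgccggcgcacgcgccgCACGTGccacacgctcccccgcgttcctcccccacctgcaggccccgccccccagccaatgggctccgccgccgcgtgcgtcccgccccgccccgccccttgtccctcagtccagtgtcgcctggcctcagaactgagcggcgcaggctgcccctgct
Slc2a1, chr4:119108495-119108794, plus strand: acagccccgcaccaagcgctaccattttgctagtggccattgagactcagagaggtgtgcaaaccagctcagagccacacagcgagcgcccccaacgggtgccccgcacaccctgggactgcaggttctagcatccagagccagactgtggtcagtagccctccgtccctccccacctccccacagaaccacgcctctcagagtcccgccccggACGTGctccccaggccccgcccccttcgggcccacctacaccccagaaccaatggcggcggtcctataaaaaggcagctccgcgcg
Aldoc, chr11:78322823-78323122, plus strand: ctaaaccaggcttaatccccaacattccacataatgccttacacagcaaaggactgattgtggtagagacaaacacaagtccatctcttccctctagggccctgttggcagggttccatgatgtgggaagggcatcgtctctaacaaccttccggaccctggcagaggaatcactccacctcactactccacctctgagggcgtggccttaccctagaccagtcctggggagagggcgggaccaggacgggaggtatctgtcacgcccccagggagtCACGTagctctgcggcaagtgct
The match begins 36 bases before the start in Slc2a1, 108 bases before it in Bnip3 and 27 bases after it in Aldoc. ACGTG was found in 13 of the 25 promoters of the list that are in the table (52%), in 7 of the 15 whose gene was called lower (46.7%), in 25% of the promoters of 11585 tested genes and in 19.7% of all 27025 promoters of this length. Among called genes it was in 24% of the promoters of genes that were higher and 26.7% of those of genes that were lower. The letters TCAAGGTCA, the full site of Esrrb and its relatives, searched on both strands, were in 0.407% of all promoters, in 27 of the 11585 of tested genes (0.233%), in 0 of the 25 of this list, in 0 of 996 of the genes called higher and in 5 of 1448 of those called lower (0.345%). In the FGF and ERK response list ACGTG was in 5 of 13 promoters (38.5%) and TCAAGGTCA in 0. A match is a description of the letters in the window and not a bound site.

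Slc2a3 encodes the high-affinity glucose transporter GLUT3 and was at 790, 729, 555 and 658 CPM in the WT libraries, 271, 180, 79 and 88 in those of KO2 and 120 and 129 in those of KO3. WT and depleted libraries did not overlap, KO2 replicate 1 was the highest of the depleted libraries, and the change was -2.37 ± 0.34 (limma adjusted p = 2.98e-06). Slc2a1, the broadly used transporter GLUT1, was at 1047, 991, 864 and 991 CPM in the WT libraries, 453, 352, 285 and 266 in those of KO2 and 244 and 238 in those of KO3. Its change was -1.78 ± 0.23 (limma adjusted p = 5.3e-07), and each KO2 library was above each KO3 library without a called difference between the lines (-0.46 ± 0.3, limma adjusted p = 0.32). Bnip3, a receptor that directs mitochondria to autophagy, was at 87.2, 87.2, 140 and 172 CPM in the WT libraries, 37.6, 35.2, 29.2 and 22.7 in those of KO2 and 19.3 and 27.4 in those of KO3, a change of -2.09 ± 0.3 (limma adjusted p = 2.7e-06). Aldolase C (Aldoc), an enzyme of glycolysis, was at 53, 44.4, 53.9 and 63.1 CPM in the WT libraries, 20.3, 21.5, 25.4 and 15.9 in those of KO2 and 13 and 12 in those of KO3, and its change of -1.67 ± 0.18 (limma adjusted p = 1.2e-09) was larger in KO3 by 0.67 (limma adjusted p = 0.043).

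Other metabolic lists had fewer calls. Of 30 measured subunits of oxidative phosphorylation 2 were called lower, Ndufv2 (-1.07 ± 0.1) and Atp5c1 (-0.68 ± 0.08), and 0 higher, with a median of -0.24. In KO3 alone 5 were called lower and 0 higher, and in KO2 alone 1 lower and 1 higher. They summed to 8282 to 8609 CPM in WT, 7742 to 8099 in KO2 and 6155 to 6500 in KO3. Centred on its neighbours on chromosome 2, Atp5c1 was no longer called (-0.56). Of 30 cytosolic ribosomal protein genes 0 were called by limma over both lines, 0 also in edgeR, and their median was -0.33. In KO3 alone 5 were called lower, with a median of -0.46, and in KO2 alone 0, with a median of -0.16. They summed to 46870 to 49530 CPM in WT, 42160 to 48970 in KO2 and 34820 to 37630 in KO3. Among amino acid stress genes controlled by ATF4, 5 of 20 were called lower and 2 higher. Ddit4, an inhibitor of mTORC1 that low oxygen also induces, was at 892, 884, 742 and 915 CPM in the WT libraries, 598, 478, 213 and 198 in those of KO2 and 161 and 172 in those of KO3, a change of -1.86 ± 0.27 (limma adjusted p = 2.9e-06), and KO2 replicates 1 and 2 lay between WT and the other depleted libraries. Asparagine synthetase (Asns) also had KO2 replicates 1 and 2 between WT and the rest, and fell by 1.11 (limma adjusted p = 9.6e-05). Of 11 measured genes of the list of Esrrb relatives and energy targets 1 was called higher and 1 lower, with a median of -0.20. The 1 called lower was Ppargc1b, a coactivator that partners estrogen-related receptors in energy metabolism, which fell by 1.02 (limma adjusted p = 2.8e-05). Esrra, the close relative of Esrrb, differed by -0.53 ± 0.18 and was not called. Leaving out WT replicate 1 or KO3 replicate 2 brought it past the threshold, at -0.64 and -0.59.

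**Figure D2:**
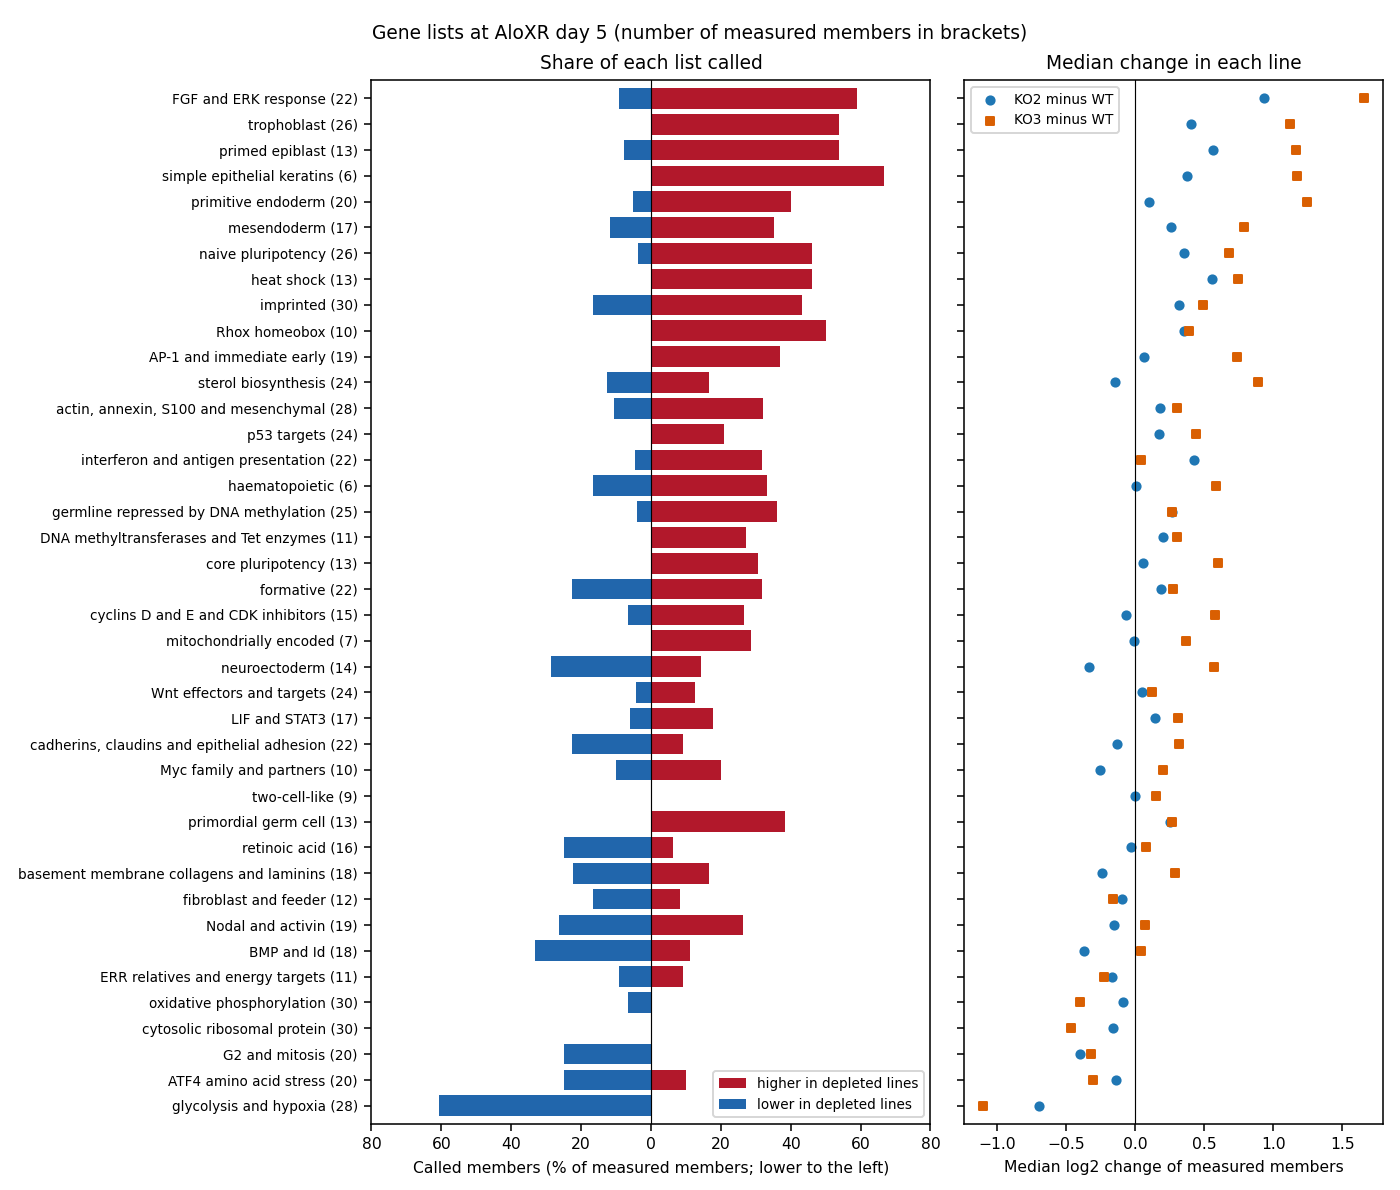
Left, percentage of the measured members of each of 40 gene lists called higher (to the right) or lower (to the left) at day 5; right, median log2 change of the same members in KO2 and KO3. Lists are ordered by the median over both lines, with glycolysis and hypoxia lowest at -0.88 and the FGF and ERK response highest at 1.3.

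Naive pluripotency genes were called higher in 12 of 26 cases and lower in 1, with a median of 0.58. With a pseudocount of 5 CPM in place of 1 5 were called higher, and 6 of the 26 were under 1 CPM in all 10 libraries. Klf5, a zinc-finger factor of naive cells and trophectoderm, was at 30.8, 35.1, 39.8 and 39.5 CPM in the WT libraries, 70.4, 94.9, 98.2 and 135 in those of KO2 and 163 and 127 in those of KO3. Both lines were above WT without overlap, by 1.68 ± 0.14 (limma adjusted p = 1.04e-12). Threonine dehydrogenase (Tdh), a mitochondrial enzyme that naive cells use for one-carbon metabolism, rose by 1.65 ± 0.26 (limma adjusted p = 1.04e-05), from 1.31 to 2.96 CPM in WT to 5.92 to 15.4 in the depleted lines. The 1 naive gene called lower was the homeobox factor Nanog, at 105, 96.5, 73.2 and 84 CPM in the WT libraries, 56.9, 34.1, 38.5 and 33.7 in those of KO2 and 30.2 and 27.4 in those of KO3. Its change was -1.36 ± 0.16 (limma adjusted p = 6.6e-09), and KO2 replicate 1 was the depleted library nearest to WT.

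Of 13 core pluripotency genes 4 were called higher and 0 lower. The RNA-binding protein L1td1 was at 214, 186, 212 and 187 CPM in the WT libraries, 482, 629, 772 and 814 in those of KO2 and 950 and 992 in those of KO3, without overlap, with a change of 2 ± 0.29 (limma adjusted p = 4.8e-06). Tdgf1, the Nodal co-receptor Cripto, was at 11.8, 15.7, 22.1 and 15.5 CPM in the WT libraries, 66.5, 109, 159 and 186 in those of KO2 and 42.5 and 38.5 in those of KO3. The rise was called in both lines and was larger in KO2, by 2.86, than in KO3, by 1.3, with a difference of -1.56 ± 0.23 (limma adjusted p = 1.2e-05). Foxd3, a forkhead repressor, rose by 1.51 ± 0.36 (limma adjusted p = 0.0016). The fourth, Pou5f1, was at the threshold, at 0.59 ± 0.18 (limma adjusted p = 0.0094), and was not called when WT replicate 2 or 4, KO2 replicate 4 or KO3 replicate 1 was left out, with changes of 0.54, 0.54, 0.55 and 0.50. Sox2 differed by 0.27 ± 0.22 and was not called.

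Formative genes were divided, with 7 of 22 called higher, 5 lower and a median of 0.26. Pou3f1, a POU factor of formative cells, was at 158, 156, 180 and 180 CPM in the WT libraries, 268, 415, 512 and 545 in those of KO2 and 514 and 524 in those of KO3. KO2 replicate 1 was the lowest depleted library and still lay above WT, and the rise was 1.47 ± 0.17 (limma adjusted p = 8.2e-09). Otx2, which acts with Pou3f1 at formative enhancers, was at 362, 384, 373 and 428 CPM in the WT libraries, 137, 167, 239 and 204 in those of KO2 and 211 and 209 in those of KO3, a change of -0.98 ± 0.19 (limma adjusted p = 0.00011). Otx2 lies in a stretch of chromosome 14 whose genes were lower as a group, and centred on its neighbours it differed by -0.12 (limma adjusted p = 0.68). Lef1, a Wnt effector, rose by 1.79 ± 0.16 (limma adjusted p = 1.1e-11). Dnmt3b (0.29 ± 0.24), Fgf5 (0.33 ± 0.13) and Dnmt3a (-0.52 ± 0.1) were not called.

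Within the TGFβ superfamily, Bmp4 and Bmp7 were lower and Nodal was higher. Bmp4 was at 15.1, 11.1, 10.9 and 13.1 CPM in the WT libraries, 0.683, 0.71, 3.12 and 2.3 in those of KO2 and 0.725 and 1.13 in those of KO3, a change of -2.62 ± 0.25 (limma adjusted p = 5.5e-11) without overlap. Bmp7 fell by 2.22 (limma adjusted p = 2.4e-07). Id1, a direct target of BMP signalling that inhibits helix-loop-helix factors, was at 33.6, 25.2, 17.1 and 23.8 CPM in the WT libraries, 6.6, 5.92, 6.23 and 4.43 in those of KO2 and 7.25 and 4.76 in those of KO3, a change of -1.89 ± 0.31 (limma adjusted p = 1.1e-05), whereas its relative Id2 was at 28.8, 23.8, 24.3 and 22.7 CPM in the WT libraries, 62.6, 84.2, 158 and 171 in those of KO2 and 171 and 166 in those of KO3, a rise of 2.4 ± 0.22 (limma adjusted p = 1.04e-10). Every depleted library was below WT for Id1 and above WT for Id2. Over the BMP and Id list 6 of 18 were called lower and 2 higher.

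Nodal, the ligand that activin A in the medium mimics, was at 3.93, 9.11, 6.59 and 3.93 CPM in the WT libraries, 9.34, 10.4, 24.5 and 27.8 in those of KO2 and 16.9 and 14.9 in those of KO3, a rise of 1.37 ± 0.26 (limma adjusted p = 0.00011). KO2 replicate 1 was just above the highest WT library. Its antagonist and target Lefty1 was at 21.8, 32.5, 23.9 and 12.2 CPM in the WT libraries, 9.34, 13.5, 29.4 and 33.8 in those of KO2 and 7.73 and 8.61 in those of KO3. These groups overlapped and Lefty1 was not called (-0.73 ± 0.37). The inhibitory Smad7 rose by 1.52 ± 0.24 (limma adjusted p = 9.05e-06). In all, 5 of 19 measured genes of the Nodal and activin list were called higher and 5 lower, and 3 were called lower without WT replicate 1 or 3 or without KO2 replicate 1 or 4. Only 2 were called lower under TMM scaling (5 higher), in edgeR (4), position-centred (4) and with a pseudocount of 5 CPM (3). Of 16 retinoic acid genes 4 were called lower, among them Crabp2 (-2 ± 0.2), which carries retinoic acid to its receptors, and Dhrs3 (-2.15 ± 0.28), which turns retinal back to retinol.

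The homeobox genes Six3 and Lmx1b, named as large falls, were read in WT and were near 0 in the depleted lines. Six3, a homeobox gene of the forebrain and eye field, was at 22, 14.7, 16.8 and 32.1 CPM in the WT libraries, 0.683, 0, 0.223 and 1.06 in those of KO2 and 2.17 and 1.36 in those of KO3. No depleted library came near the WT range, a change of -3.44 ± 0.26 (limma adjusted p = 5.4e-14). Lmx1b, a LIM homeobox gene of midbrain and limb, was at 18.3, 14.7, 13.4 and 14.8 CPM in the WT libraries, 1.82, 0.71, 0.668 and 0.354 in those of KO2 and 0.483 and 1.36 in those of KO3, a change of -3.14 ± 0.29 (limma adjusted p = 2.6e-11). Sox1, an early neural plate factor, fell by 1.24 (limma adjusted p = 0.0034). The neuroectoderm list as a whole did not follow them, with 4 of 14 called lower and 2 higher and a median of 0.14. In KO2 alone 4 were called lower and 0 higher, and in KO3 alone 2 lower and 4 higher. The list summed to 145 to 172 CPM in WT, 134 to 234 in KO2 and 258 to 274 in KO3. The lower count over both lines was 2 without KO3 replicate 1. The median of the list was 0.02 to 0.24 under the settings that kept all 14 genes. It was -0.50 with a filter of 5 CPM in 3 libraries, which kept 4 of them.

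Of 26 measured trophoblast genes 14 were called higher and 0 lower (8 with a pseudocount of 5 CPM), with medians of 0.41 in KO2 and 1.12 in KO3. The list shares Peg10 with the imprinted genes below. The transcription factor Tfap2c was at 1.53, 3.17, 2.27 and 1.75 CPM in the WT libraries, 11.8, 4.73, 1.78 and 2.66 in those of KO2 and 23.4 and 21.3 in those of KO3, and KO2 replicates 3 and 4 lay within the WT range. Rhox6, a homeobox gene of placenta and germ cells on the X chromosome, was at 0, 0, 2.05 and 0.218 CPM in the WT libraries, 9.56, 4.26, 0.223 and 0.177 in those of KO2 and 41.5 and 38.5 in those of KO3, a rise of 3 ± 0.45 (limma adjusted p = 5.2e-06). KO2 replicates 3 and 4 were within the WT range. Reads of Rhox genes can be shared between near-identical copies. Among 6 simple epithelial keratins 4 were called higher, including Krt19 (1.23 ± 0.2) and Krt8 (0.67 ± 0.17), and Krt8 was not called without KO3 replicate 2 (0.55). In KO2 alone 1 keratin was called higher and in KO3 alone 4, and 4 were higher in KO3 than in KO2. The keratins summed to 310.5 to 344.2 CPM in WT, 278.5 to 335.2 in KO2 and 509.9 to 522.4 in KO3, so the summed level was raised in KO3 only. Cdx2 and Gata3, transcription factors of trophoblast, were not called over both lines, at 0.31 and 0.50, and were named after their values were seen.

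Of 25 germline genes that DNA methylation represses 9 were called higher and 1 lower (2 higher with a pseudocount of 5 CPM). The exception was Sycp3, a component of the synaptonemal complex, at 101, 94.5, 87.5 and 96.2 CPM in the WT libraries, 32.8, 32.4, 17.4 and 22.1 in those of KO2 and 4.35 and 5.89 in those of KO3. All 3 lines separated in the order WT, KO2, KO3, with a change of -2.92 ± 0.27 (limma adjusted p = 6.3e-10) and a further difference of -2.12 ± 0.36 from KO2 to KO3 (limma adjusted p = 7.6e-05). The genes called higher were low in level: Taf7l (1.61 ± 0.33), a germ cell subunit of the transcription machinery, was at 0.218 to 1.09 CPM in WT, 0.668 to 3.42 in KO2 and 4.30 to 8.94 in KO3. Of 9 measured genes of the two-cell-like state 0 were called by limma, and 0 also in edgeR. At day 5, however, 13 of the listed genes were under 1 CPM in all 10 libraries, 7 of them at 0. Most could therefore hardly have been called, and the counts do not show whether this state differed.

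Imprinted genes, which are expressed from 1 parental copy, were called higher in 13 of 30 cases and lower in 5, with similar counts in KO2 (13 and 6, where 6.27% and 10.6% of all genes were called) and in KO3 (12 and 5, where 12.8% and 12.6% were). Peg10, a gene derived from a retrotransposon that the placenta needs, was at 11.8, 11.1, 20.2 and 17 CPM in the WT libraries, 109, 138, 135 and 150 in those of KO2 and 224 and 203 in those of KO3. The depleted libraries began at 109 CPM and WT ended at 20.2 CPM, and the rise was 3.44 ± 0.25 (limma adjusted p = 4.2e-12). Magel2, a ubiquitin ligase regulator of the Prader-Willi region, was at 2.62, 4.75, 10.7 and 5.24 CPM in the WT libraries, 21.4, 37.4, 77.7 and 70.9 in those of KO2 and 57.7 and 47.8 in those of KO3, a rise of 3.01 ± 0.3 (limma adjusted p = 2.8e-10). H19, a maternally expressed long noncoding RNA, was at 44.3, 45.6, 38.9 and 31.9 CPM in the WT libraries, 291, 129, 71.2 and 67.8 in those of KO2 and 263 and 250 in those of KO3, a rise of 2.09 ± 0.42 (limma adjusted p = 0.000297). Within KO2 the values were far apart, and every depleted library was still above WT. Plagl1, a zinc-finger factor, rose by 2.2 ± 0.27 (limma adjusted p = 1.4e-08).

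Several of the largest single changes lay outside these groups. Psors1c2 had the largest rise of all called genes, at 1.53, 1.58, 1.59 and 2.18 CPM in the WT libraries, 31.2, 50.4, 62.6 and 63.2 in those of KO2 and 22.9 and 18.6 in those of KO3, a change of 3.62 ± 0.26 (limma adjusted p = 1.8e-14). Sgk1, a kinase downstream of PI3K, was at 1.53, 0.991, 4.09 and 2.4 CPM in the WT libraries, 6.15, 14.7, 36.7 and 47.5 in those of KO2 and 42.3 and 39.2 in those of KO3, and Trh, the precursor of thyrotropin-releasing hormone, was at 1.53, 2.77, 2.73 and 1.09 CPM in the WT libraries, 4.55, 12.3, 30.7 and 25.9 in those of KO2 and 48.3 and 36.7 in those of KO3. In both, KO2 replicate 1 was the depleted library nearest to WT, and the changes were 3.29 ± 0.36 and 3.15 ± 0.39 (limma adjusted p = 4.1e-08 and 3.5e-07). The chromatin factor Arid5b rose by 2.88 ± 0.19. Among the falls outside the lists, the organic cation transporter Slc22a3 changed by -3.17 ± 0.29, the DNA repair gene Rdm1 by -2.68 ± 0.17, the Wnt antagonist Dact3 by -2.46 ± 0.28 and the insulin-like growth factor binding protein Igfbp5 by -2.39 ± 0.36, each with all 6 depleted libraries below WT.

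Stress and cell cycle genes changed in part. Of 24 p53 targets 5 were called higher and 0 lower (3 higher without KO2 replicate 3), led by Perp (1.23 ± 0.16), an effector of apoptosis, and Mdm2 (1.08 ± 0.11), which targets p53 for degradation. Cdkn2a, which encodes the inhibitors p16 and p19ARF, was at 23.6, 24.4, 15.2 and 13.3 CPM in the WT libraries, 39.2, 39.5, 30.9 and 34 in those of KO2 and 125 and 93.3 in those of KO3. Both lines were above WT and KO3 was above KO2 by 1.57 ± 0.24 (limma adjusted p = 1.8e-05). The cyclin-dependent kinase inhibitor Cdkn1b fell by 0.92 (limma adjusted p = 2.5e-05). Of 20 genes of G2 and mitosis 5 were called lower and 0 higher, with Bub1, a spindle checkpoint kinase, at -0.91 ± 0.12, and 3 were called once changes were centred on neighbouring genes. Heat shock genes were called higher in 6 of 13 cases and lower in 0. In each line alone 4 were called higher and 0 lower, with medians of 0.56 in KO2 and 0.74 in KO3. The list summed to 4900 to 5003 CPM in WT, 5568 to 7961 in KO2 and 6253 to 6320 in KO3. The small chaperone Cryab rose most over both lines, and it did not follow the list in KO2. Cryab was at 10.7, 14.7, 4.77 and 4.15 CPM in the WT libraries, 14.1, 14.2, 10.2 and 12.6 in those of KO2 and 100 and 79.7 in those of KO3. Every KO2 library lay within the WT range, and only KO3 was above it.

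Markers of other cells that a culture could hold were checked as well. The 14 listed fibroblast and feeder genes summed to 111 to 128 CPM in WT, 103 to 146 in KO2 and 123 to 128 in KO3, and of the 12 tested 1 was called higher and 2 lower. The lower count was 4 without WT replicate 2 or KO2 replicate 4 and 1 without WT replicate 1, and 0 were called higher by limma without WT replicate 1 or 2, KO2 replicate 3 or 4 or KO3 replicate 1 or 2. The 12 listed haematopoietic genes summed to 8.12 to 11.1, 6.6 to 12.8 and 9.74 to 15.5 CPM, 3 of them were at 0 in all 10 libraries, and of the 6 tested 2 were called higher and 1 lower.

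The depleted lines also differed from each other. KO3 against KO2 gave 2389 called genes (14.1%), 1531 higher (9.02%) and 858 lower (5.06%), and 829 of the 3491 called genes differed between the lines. KO2 alone gave 2857 calls against WT (16.8%) and KO3 alone 4321 (25.5%), 2175 higher and 2146 lower. KO3 has only 2 libraries, and the counts for KO3 were 1415 higher without its replicate 1 and 1399 lower without its replicate 2.

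Primitive endoderm genes were among those that differed. Of 20 measured, 14 were higher in KO3 than in KO2 and 0 lower, and against WT 14 were called higher in KO3 and 0 in KO2. Over both lines 8 were called higher and 1 lower (5 higher without WT replicate 2). Col4a1, a basement membrane collagen, was at 36.2, 32.5, 30.7 and 31 CPM in the WT libraries, 36.4, 38.1, 53.4 and 49.8 in those of KO2 and 339 and 270 in those of KO3. Sox17, an endoderm transcription factor, was at 0, 0, 0.227 and 0 CPM in the WT libraries, 0, 0, 0.445 and 0.177 in those of KO2 and 9.9 and 6.34 in those of KO3, with WT and KO2 at or under the limit of 3 reads and both KO3 libraries above it. Lama1, a laminin chain, was at 0.654, 0.594, 2.27 and 0.436 CPM in the WT libraries, 1.14, 0.946, 1.11 and 0.177 in those of KO2 and 33.8 and 25.6 in those of KO3, and since KO2 changed by -0.07 and KO3 by 4.02, it was not called over both lines. Klf4, a naive factor, changed by -0.16 in KO2 and 1.91 in KO3 (a difference of 2.07 ± 0.30, limma adjusted p = 2.5e-06). The mesendoderm list, which shares Sox17, Foxa2, Gata4 and Gata6 with primitive endoderm, had 0 genes called higher by limma in KO2 and 6 in KO3 of 17. Over both lines 6 were called higher, and 3 without WT replicate 1 or KO2 replicate 3. Brachyury (T) was not called in either line, at 0.79 and 0.61.

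Sterol synthesis separated the lines as well. KO3 was above KO2 in 19 of 24 measured genes and below in 0, and their summed level was 3338 to 3851 CPM in WT, 2342 to 3614 in KO2 and 6672 to 6846 in KO3. Against WT, 16 were called higher in KO3 and 0 in KO2, while 5 were called lower in KO2 and 1 in KO3. Over both lines 4 were called higher and 3 lower, with 7 higher without KO2 replicate 1, 8 without KO2 replicate 2, and 1 lower without WT replicate 1 or 2 or KO2 replicate 1. Hsd17b7, a reductase of cholesterol synthesis, was at 17.7, 18.8, 20.7 and 19.4 CPM in the WT libraries, 18.4, 23.7, 33.6 and 39.1 in those of KO2 and 80 and 75.4 in those of KO3, and the KO3 libraries stood apart from the rest. Interferon and antigen presentation genes had the opposite order, with 5 of 22 lower in KO3 than in KO2 and 0 higher. Psmb8, an immunoproteasome subunit, was at 0.218, 0.594, 1.14 and 0.655 CPM in the WT libraries, 5.69, 8.04, 13.6 and 12.4 in those of KO2 and 4.11 and 4.76 in those of KO3, and its rise was 2.69 in KO2 and 1.74 in KO3 (difference -0.94 ± 0.31, limma adjusted p = 0.029). Uridine phosphorylase (Upp1) was at 5.89, 8.92, 7.05 and 8.29 CPM in the WT libraries, 2.05, 1.18, 1.11 and 0.886 in those of KO2 and 5.8 and 8.15 in those of KO3, a fall in KO2 by 1.90. KO3 changed by -0.10, with 5.8 CPM just below the lowest WT library and 8.15 CPM inside the WT range. The call of Upp1 over both lines was lost without KO3 replicate 1 (-0.89).

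**Figure D3:**
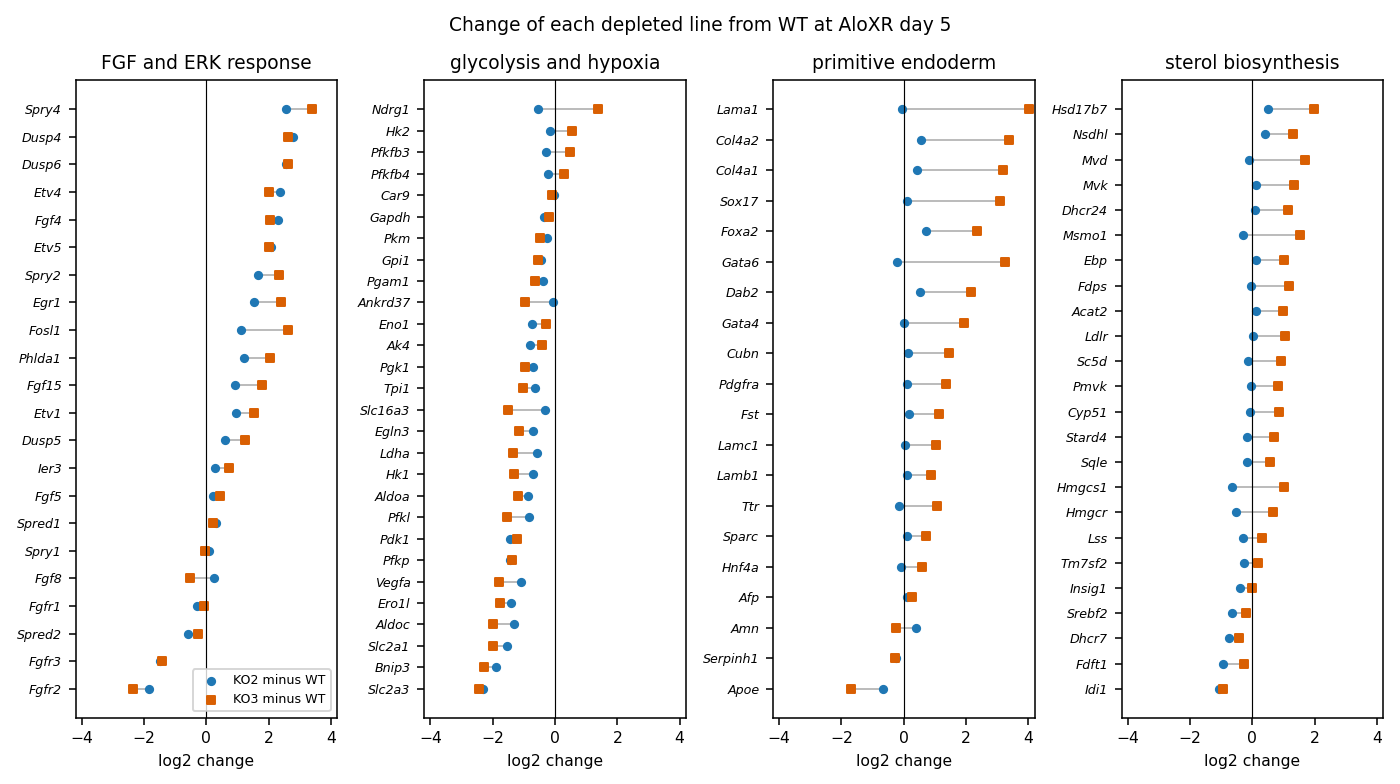
Log2 change from WT (horizontal axes) of each measured member of 4 gene lists in KO2 (circles) and KO3 (squares), joined by a line for each gene. KO3 lies to the right of KO2, with a called difference between the lines, for 14 of 20 primitive endoderm genes and 19 of 24 sterol genes, against 3 of 22 genes of the FGF and ERK response and 3 of 28 of glycolysis and hypoxia.

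The difference between depleted and WT cells at 5 days was set against that at earlier times. The depleted-against-WT change at day 5 differed from that at day 3 for 1021 genes (6.02%), 268 more positive (1.58%) and 753 more negative (4.44%), each by a limma contrast between the changes. The first count depended on scaling and on 1 library, with 397 to 433 under TMM, quantile scaling or edgeR and 427 without KO2 replicate 1. Against the change in 2iL the count was 3062 (18%), with 1290 more positive (7.6%) and 1772 more negative (10.4%). Of the 3491 genes called at day 5, 2933 had no called difference from day 3.

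Dusp6 in WT went from 285 CPM at day 1 to 146 at day 3 and 77 at day 5, whereas KO2 was at 348, 307 and 436 and KO3 at 373, 401 and 448. The change at day 5 exceeded that at day 3 by 1.3 ± 0.29 (limma adjusted p = 0.0048). Pou3f1 in WT went from 387 to 362 and 168 CPM, KO2 was at 414, 537 and 435 and KO3 at 370, 519 and 519 (difference of changes 0.92 ± 0.23, limma adjusted p = 0.012). Of the 22 FGF and ERK genes 8 had a more positive change at day 5 than at day 3 and 3 a more negative one.

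Slc2a3 ran the other way. WT held 792 CPM in 2iL, 24.1 at day 1, 76 at day 3 and 683 at day 5, while KO2 held 703, 24.1, 98 and 154 and KO3 1014, 34.2, 88.3 and 125. The WT level at day 5 was near that in 2iL and the depleted lines were far below theirs, with a difference between the day 5 and day 3 changes of -2.69 ± 0.48 (limma adjusted p = 0.00066). Fgfr2 in WT went from 6.99 CPM at day 3 to 47.9 at day 5, against 11.5 to 13.1 in KO2 and 12 to 8.1 in KO3, a difference of -2.76 ± 0.36 (limma adjusted p = 1.3e-06). Nanog in WT was at 506 CPM in 2iL, 18.1 at day 1, 43.1 at day 3 and 89.6 at day 5, and the lines ended at 40.8 in KO2 and 28.8 in KO3 (difference of changes -1.06 ± 0.22, limma adjusted p = 0.0022). Six3 in WT went from 2.75 to 21.4 CPM between these days, and the change at day 5 was lower by 2.33 ± 0.37 (limma adjusted p = 5.7e-05).

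Imprinted genes differed in course from one another. H19 was already 243 CPM in KO2 and 96.9 in KO3 in 2iL, against 2.35 in WT, and at day 3 it was at 439 and 450 against 9.08. At day 5 it was at 140 and 256 in the depleted lines and 40.1 in WT, so the change was smaller than at day 3 (-3.29 ± 0.59, limma adjusted p = 0.00076). Magel2 in WT was at 22.4 CPM at day 3 and 5.82 at day 5, against 56.4 and 51.8 in KO2 and 14.1 and 52.8 in KO3 (2.75 ± 0.42, limma adjusted p = 4.6e-05). Outside the imprinted genes, the core pluripotency gene Tdgf1 in WT went from 85.3 to 16.2 CPM between the same days, KO2 held 114 and 130 and KO3 53.2 and 40.5 (2.2 ± 0.25, limma adjusted p = 5.6e-07). Trophoblast genes had a smaller change than at day 3 in 10 of 26 cases and a larger one in 0.

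**Figure D4:**
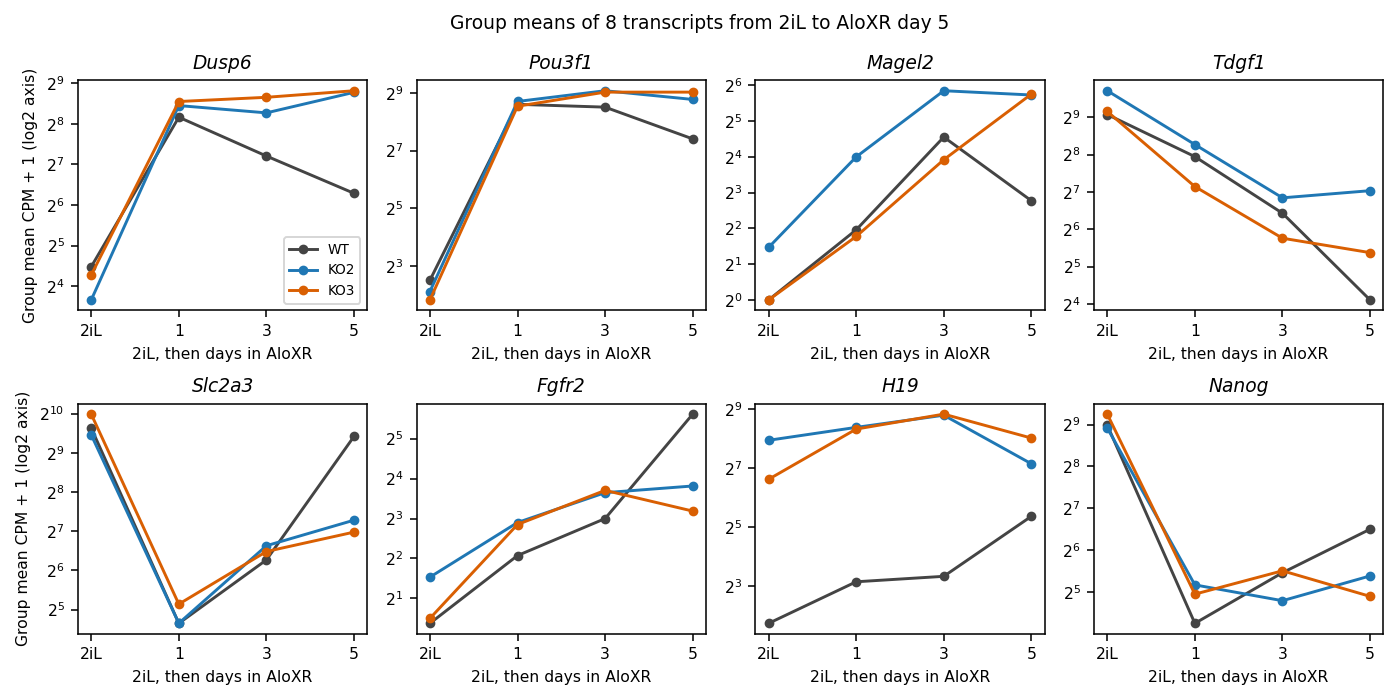
Group mean CPM + 1 (log2 vertical axes) of 8 transcripts in WT, KO2 and KO3 in 2iL and after 1, 3 and 5 days in AloXR. At day 5 WT lies apart from both depleted lines, for Slc2a3 at 683 CPM against 154 and 125 and for Dusp6 at 77 against 436 and 448, and the gap in Dusp6 is already seen at day 3.

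The changes were not spread evenly over the chromosomes. On chromosome 14, 227 tested genes between positions 37120092 and 66009207 (GRCm38) had neighbours that were lower in both lines, averaged over the 4 times. Their median change at day 5 was -0.68 in KO2 and -0.61 in KO3, with 113 called lower and 5 higher. Otx2, Bmp4, Ndrg2, Nfatc4, Nynrin and Shisa2 lie there. Centred on the neighbours, Bmp4 fell by 1.90, Ndrg2 by 1.84, Nfatc4 by 1.87, Nynrin by 1.39 and Shisa2 by 1.48, and each was still called. Tdh lies in the same stretch and its centred rise was 2.45. Otx2 was not called once centred, as given above.

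A smaller stretch of chromosome 1, from 151852403 to 170215397, held 111 genes with neighbours higher in both lines, 28 called higher and 2 lower. Whole chromosomes differed in single lines. In KO3 the median change was 0.35 on chromosome 6 and 0.37 on chromosome 8, and in KO2 it was -0.21 on chromosome 2, -0.22 on chromosome 4 and -0.19 on chromosome 13. Slc2a3, Nanog and Peg10 are on chromosome 6 and Col4a1, Col4a2, Cdh1 and Dusp4 on chromosome 8. Centring removed 624 of the 3491 calls, and Col4a1 kept a change of 1.58 (limma adjusted p = 1.5e-10). The part of DNA copy number in these shifts was not tested.

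**Figure D5:**
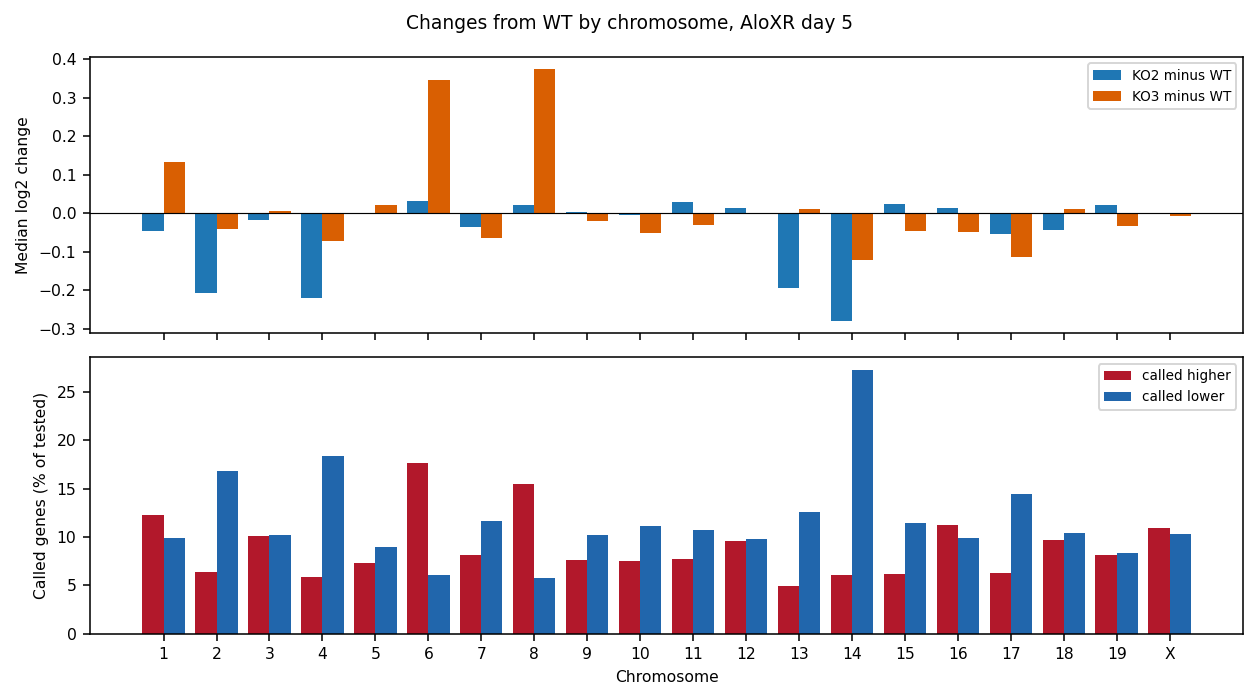
Median log2 change from WT on each chromosome in KO2 and KO3 (top) and percentage of tested genes called higher and lower over both lines (bottom) at AloXR day 5. Chromosome 14 is low in both lines, at -0.28 in KO2 and -0.12 in KO3 over all its genes, and chromosomes 6 and 8 are raised in KO3 at 0.35 and 0.37.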

How the data were processed

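The deposited table holds CPM for 55487 genes in 41 libraries (QuantSeq 3′ tags of total RNA), each column summing to 1000000. STAR 2.7.6a aligned the reads to GRCm38 and they were counted with featureCounts 2.0.1 of Subread, per the submitters' processing notes, and the authors deposited the counts as CPM; a strand setting is not given in the sources used here. Whole reads could be recovered (100% of 766190 values above 0, within 0.01 reads), which gave depths of 3424064 to 5736053.

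Genes with at least 1 CPM in 3 libraries were kept, and log2(CPM + 1) was fitted with limma 3.58.1 (R 4.3.3) over all 12 groups, with contrasts for KO2, KO3, their mean and differences between times, and Benjamini-Hochberg adjustment over all genes tested. The scripts were tested on simulated data. edgeR 4.0.16 on the recovered reads called 1643 genes higher and 1705 lower. Named genes are reference genes, the 15 largest rises and falls at 5 CPM or more in a group mean, up to 4 called genes of each list with the largest change, and 5 genes each way for each difference between times; others were chosen after their values were seen, and 1 gene that the rule names is not reported here. Position-centred changes subtract the shift of 25 neighbours on each side with at least 10 CPM. Alternatives were pseudocounts of 0.5 and 5, other filters and scalings, a fold minimum of 2 and each library left out. Members and lists were chosen with earlier results of these data known.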

Additional observations from a re-analysis of the deposited data

Results flagged for a closer look

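In 5 of 86 groups of 4 libraries 1 value stood far from the other three, measured as its gap to the nearest library over the whole range (Dixon's ratio). Chance gives about 1 in 20 such groups where values are normally distributed. The ratio was 0.902 for Psors1c2 in WT replicate 4 (2.18 CPM), 0.886 for Pou5f1 in KO2 replicate 4 (16.1 CPM), and in WT replicate 3 it was 1.0 for Sox17 (0.227 CPM), 0.881 for Lama1 (2.27 CPM) and 0.893 for Rhox6 (2.05 CPM). Sox17 was read in only 1 WT library, which fixes its ratio at 1.0, so the chance rate does not apply to it.

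The depleted-against-WT change at day 5 differed from that at day 3 for 1021 genes and from that in 2iL for 3062, and KO3 differed from KO2 for 2389, each tested by a limma contrast. Against day 3 the change was more negative for H19 (-3.29), Gadd45b (-3.05), Greb1l (-2.89), Fgfr2 (-2.76) and Nr2f2 (-2.71), and more positive for Tdgf1 (2.20), Pcdh17 (2.37), Foxd3 (2.42), Trh (2.67) and Magel2 (2.75). Against 2iL it was more negative for Lefty1 (-5.13), Igfbp5 (-4.08), Crabp2 (-3.91) and Wdr93 (-3.83), and more positive for Pdzrn3 (4.28), Nexmif (4.29), Nrp2 (4.74), Mal (5.03) and Lama1 (5.49).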

How the results depend on the processing

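None of the 150 called named genes changed sign under the alternatives run, and 89 kept their call under all of them, each line alone included, except a fold minimum of 2. In each line alone the sign could not change, because a call needs the same direction in both lines. Of the genes not called, Klf4 (-0.16), Lama1 (-0.07) and Sox2 (-0.21) were below 0 in KO2 alone and above it over both lines. With a pseudocount of 5 CPM, 654 genes were called higher and 1077 lower over both lines, 494 and 1036 in KO2, and 1316 higher in KO3. With a fold minimum of 2 the calls over both lines were 506 and 676. The count of changes more positive at day 5 than at day 3 was 177 with no filter on low values, 422 with quantile normalization, 433 in edgeR and 418 with only the times compared in the fit. The split for KO2 depended on scaling, with 1064 higher and 1793 lower as reported, 1301 and 1320 under quantile normalization and 1344 and 1408 in edgeR; for day 5 against day 3 it was 268 and 753, 422 and 539, and 433 and 536, and 397 and 632 under TMM scaling. The cause of these shifts was not tested.

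Leaving out each library in turn gave 1331 to 1659 higher and 1761 to 2062 lower over both lines, 841 to 1229 and 1482 to 1883 in KO2, and 1415 to 2083 and 1399 to 2046 in KO3. For day 5 against day 3 the range was 186 to 427 more positive and 541 to 912 more negative, for day 5 against 2iL 1154 to 1453 and 1520 to 1959, and for Esrrb -0.34 to -0.01. No paired analysis was possible because the labels give no replicate numbers shared between groups. Depth limits statements on genes near 1 CPM, and KO3 rests on 2 libraries.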
